A study of Homo sapiens with 12 samples.

Results

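The 55 genes described here encode proteins of ribosome assembly and of the nucleolus. They were taken by gene symbol from the expression tables of dasatinib-sensitive and dasatinib-resistant RCH-ACV cells, an established human B-cell precursor acute lymphoblastic leukemia line. All 55 symbols were present among the 15612 genes of the clone 1 table and among the 16848 genes of the clone 2 table. The 12 RNA-seq libraries fell into 4 groups of 3, with a sensitive and a resistant subline for each of 2 clones. Sensitive cells were kept in 0.1% DMSO, and resistant cells had been raised under dasatinib, a multi-kinase inhibitor, in rising steps up to 1 μM. The 3 libraries of a group were RNA isolations from the same subline on separate occasions, so they were not independent derivations of resistance, and each clone was a single selected line.

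The value used for each gene was the mean normalized read count that the authors deposited for each clone, taken over its 6 libraries with sensitive and resistant cells together. Such a mean carries no spread between libraries and does not separate resistant from sensitive cells, so no SD, no test and no resistance effect is given for any gene below. The means summed to 19108037 in the clone 1 table and to 24561485 in the clone 2 table, and the depth of single libraries is unknown here. Library names of clone 1 and clone 2 also carried different letters, A and B, whose meaning is not given. Clone, whatever the letter marks, separate normalization and an unlike change with resistance in the 2 clones therefore cannot be told apart. The cell type was checked against its markers. All 13 B-cell precursor markers were listed in both tables, with summed means of 64571 and 85433 in clones 1 and 2. Among them CD24 was highest (10839 and 14912) and MME was lowest (67.7 and 67.0). Of 7 T-cell markers, 1 was listed in clone 1 and 2 in clone 2 (summed means of 36.8 and 49.1), and the defining genes CD3D, CD3E and CD3G were not listed. Of 6 myeloid markers, 5 were listed in each table (summed means of 647 and 815), most of it from CSF1R (614.5 and 767.6). Of 4 erythroid markers, none was listed in clone 1 and 1 was listed in clone 2 at 2.35.

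Ribosome assembly begins in the nucleolus, where RNA polymerase I transcribes a long precursor of the ribosomal RNAs. Small nucleolar ribonucleoproteins (snoRNPs) guide the methylation and pseudouridylation of this precursor, the small subunit processome folds and cleaves its 5′ part, and a separate set of factors matures the large subunit. Many genes of this pathway are bound by the transcription factor MYC with its partner MAX, which recognise the canonical E-box CACGTG. The genes were sorted by role into 7 nucleolar scaffolds and regulators, 6 snoRNP and rRNA modification factors, 19 small subunit factors, 17 large subunit factors and 6 factors of RNA polymerase I transcription.

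The canonical E-box was searched in the RefSeq promoter windows of GRCh38.p14, which run from 250 bases before to 50 bases after a transcription start. A window was present for 45 of the 55 genes, and 20 of these 45 (44.4%, 95% Wilson interval 30.9 to 58.8%) held CACGTG. The other 10 genes were NOP58, NOLC1, BOP1, RRP1B, RRP12, RRS1, DDX18, MPHOSPH10, POLR1E and URB2. The motif reads the same on both strands. The most frequent arrangement is shown first: in 12 genes the motif began within the first 25 bases after the annotated start, at positions 2 to 16 counted from 1 at the start. Each line gives the gene, the position of the printed stretch, and the sequence on the strand of the gene, with the motif in capitals and 12 bases on either side.
PWP2, chr21:44107388-44107417, plus strand: tgagctgcggcaCACGTGcgacggccgtga
GNL2, chr1:37595917-37595946, minus strand: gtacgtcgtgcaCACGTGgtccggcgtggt
WDR43, chr2:28894658-28894687, plus strand: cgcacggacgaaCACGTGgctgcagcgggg
RCL1, chr9:4792936-4792965, plus strand: cctgttccaaacCACGTGgacgcgtctggg
FBL, chr19:39846356-39846385, minus strand: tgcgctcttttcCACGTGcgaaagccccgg
GNL3, chr3:52686026-52686055, plus strand: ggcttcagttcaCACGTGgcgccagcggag
PNO1, chr2:68157885-68157914, plus strand: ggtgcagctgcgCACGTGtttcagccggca
NOL6, chr9:33473894-33473923, minus strand: ggcatttccgccCACGTGggaagctatgag
PES1, chr22:30591880-30591909, minus strand: tccttggcagggCACGTGcgggaggaagtg
MRTO4, chr1:19251807-19251836, plus strand: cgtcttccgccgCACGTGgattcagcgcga
IMP4, chr2:130342900-130342929, plus strand: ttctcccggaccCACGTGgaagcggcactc
NOP14, chr4:2963374-2963403, minus strand: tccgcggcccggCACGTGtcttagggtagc

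In these 12 genes the motif therefore lay inside the annotated transcribed part and close to its first base. The starts used in these cells were not measured. They come from 4 of the 5 roles, with none from RNA polymerase I transcription, and comprise FBL, the methyltransferase of box C/D snoRNPs, GNL3 (nucleostemin), a nucleolar GTPase, 3 large subunit factors and 7 small subunit factors. In 3 further genes the motif lay at or just before the start. It spanned the start of RRP9, a U3 snoRNP protein, from position -5. It began at position -10 in UTP20, a large scaffold of the small subunit processome, and at position -15 in NAT10, the acetyltransferase of 18S ribosomal RNA.
RRP9, chr3:51941892-51941921, minus strand: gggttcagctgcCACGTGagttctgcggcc
UTP20, chr12:101280083-101280112, plus strand: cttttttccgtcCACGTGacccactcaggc
NAT10, chr11:34105602-34105631, plus strand: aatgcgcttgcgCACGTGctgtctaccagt

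The remaining matches were spread over the window. BYSL, NOP2 and EBNA1BP2 had one at positions 29, 36 and 43, and DDX21 and LYAR at -31 and -64. A second match in the same window was found in IMP4 at -203. EBNA1BP2 had another match at -237, counted from a different start in a separate window. Protein-coding genes listed in both tables and with a window served as background (10633 genes, the ribosome assembly genes included). CACGTG was present in 12.3% of these (interval 11.7 to 13.0%), in 14.97% of the 3486 with a mean of at least 1000 in both tables, and in 8.78% of all 27305 genes with a window. A match wholly after the start was found in 15 of 45 ribosome assembly genes (33.3%, interval 21.4 to 47.9%) against 1.51% of the background (1.30 to 1.76%). Matches wholly before the start were found in 13.3% (6.26 to 26.2%) against 11.01%, with overlapping intervals. Of all 22 matches in the ribosome assembly genes 68.2% lay after the start, compared with 10.1% of 1594 matches in the background. The genes had been brought together as a set in which MYC targets prevail, so the share with this motif is not independent of how they were chosen, and no test was made. A match is a description of the sequence and not evidence of binding in these cells.

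**Figure D1:**
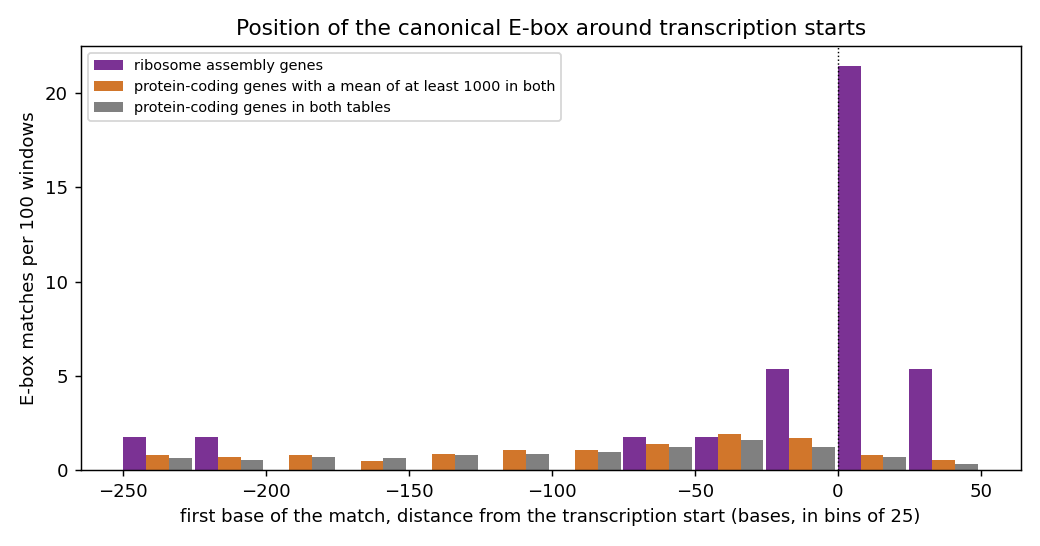
Position of the canonical E-box relative to the transcription start. Bars give matches per 100 promoter windows in bins of 25 bases (x axis, bases from the start) for the ribosome assembly genes (56 windows), protein-coding genes with a mean of at least 1000 in both tables (5156 windows) and protein-coding genes in both tables (15591 windows). The first bin after the start holds 21.4 matches per 100 windows of the ribosome assembly genes and 0.686 in the protein-coding background.

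Next to the motif, a T before or an A after was rarer than in the background. A T directly before or an A directly after CACGTG was seen in 3 of the 22 matches (13.6%, interval 4.75 to 33.3%), namely in RRP9, UTP20 and the upstream match of IMP4. In the background it was seen in 876 of 1587 matches with both neighbours in the window (55.2%, interval 52.7 to 57.6%). Among 123 other ribosome assembly genes, taken up below as a second list, it was seen in 11 of 29 matches (37.9%). Their interval (22.7 to 56%) overlaps that of the ribosome assembly genes described here. A C before or a G after was present in 16 of 22 matches (72.7%) against 54.6%, and here the interval of the ribosome assembly genes (51.9 to 86.9%) included the background value. The other assembly genes had it in 65.5% (47.35 to 80.06%). Base composition was close, with a median GC content of 64.2% in the windows of the ribosome assembly genes and 64.3% in the background, and with medians of 27 and 24 CpG per window.

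By role, CACGTG was found in 4 of 5 snoRNP and modification genes with a window, 9 of 17 small subunit genes, 3 of 6 scaffolds and regulators and 4 of 12 large subunit genes. None of 5 RNA polymerase I genes held it, with an upper interval bound of 43.5%, while 4 of these 5 held CACGCG, a related E-box variant. Large subunit genes held CCGGAAG, a core of ETS factor sites, in 8 of 12 (66.7%, interval 39.1 to 86.2%), against 20.9% of the background and 26.0% of the background with a mean of at least 1000. The other roles held it in 2 of 17 small subunit genes, 1 of 6 scaffolds and regulators, 2 of 5 snoRNP and modification genes and 3 of 5 RNA polymerase I genes. A second list of 123 other ribosome assembly genes, of which 101 had a window, held CCGGAAG in 48.5% (interval 39 to 58.1%), which lies inside the interval of the large subunit genes. Over all 45 genes CCGGAAG and CACGCG were each found in 16 (35.6%, interval 23.2 to 50.2%). CACGCG was found in 21.6% of the background, but in 26.4% of genes with a mean of at least 1000 and in 32.7% of the other assembly genes, both inside that interval. For comparison with other palindromes, CAGCTG was present in 15.6% of the ribosome assembly genes and in 23.0% of the background, and GTGCAC in 8.89% and 6.78%. CACGTG or CACGCG was present in 30 of 45 (66.7%, interval 52.1 to 78.6%), against 30.6% of the background, 36.5% of genes with a mean of at least 1000 and 50.5% (40.9 to 60.1%) of the other assembly genes, whose interval overlaps. These motif definitions were read on both strands, and the matches of different motifs may overlap.

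Of the 101 other assembly genes with a window, CACGTG was present in 23.8% (interval 16.5 to 32.9%), and in 10.9% (6.19 to 18.5%) it lay after the start. Both shares were between those of the ribosome assembly genes described above and the background. For the whole window the interval overlaps that of the ribosome assembly genes (30.9 to 58.8%). After the start it does not (21.4 to 47.9%).

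**Figure D2:**
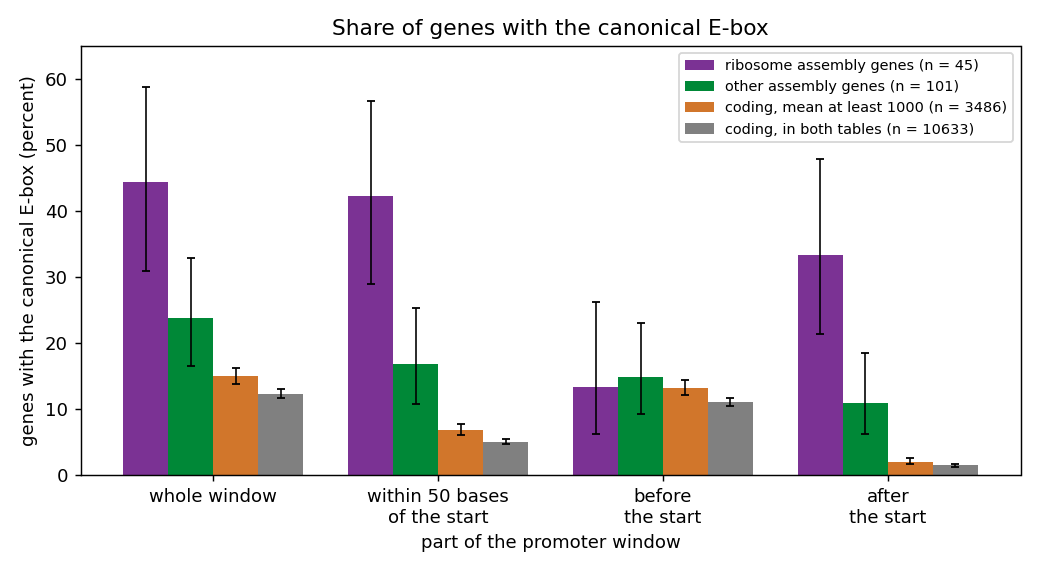
Share of genes with the canonical E-box in the whole promoter window and in 3 parts of it. Bars are percentages of genes in 4 gene groups and error bars are 95% Wilson intervals. After the start the bars stand at 33.3% for the ribosome assembly genes, 10.9% for other assembly genes, 2.04% for protein-coding genes with a mean of at least 1000 and 1.51% for protein-coding genes in both tables.

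Genes with and without the motif were expressed over overlapping ranges. The level of a gene is given as its mean normalized count per kb of its principal transcript, so that genes of different length can be compared. The 20 genes with CACGTG ranged from 286 to 4863 per kb in clone 1 (median 933), and the 25 genes with a window and no CACGTG ranged from 193 to 22930.1 (median 729.8). In clone 2 the medians were 1206 and 912 per kb.

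All 55 genes were expressed above the median of all listed genes in both tables. In clone 1 their levels ranged from 193 to 22930.1 per kb around a median of 838, compared with a median of 139 for all genes. In clone 2 they ranged from 232 to 32382 around a median of 1046, compared with 149 for all genes. The median gene stood at the 88.3rd percentile in clone 1 and at the 88.8th percentile in clone 2, and the lowest at 58.0 and 59.4. The top decile of all genes held 24 of the 55 in clone 1 and 26 in clone 2. Together the 55 genes made up 1.31% of the summed normalized counts in clone 1 and 1.30% in clone 2, while they were 0.352% and 0.326% of the listed genes.

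**Figure D3:**
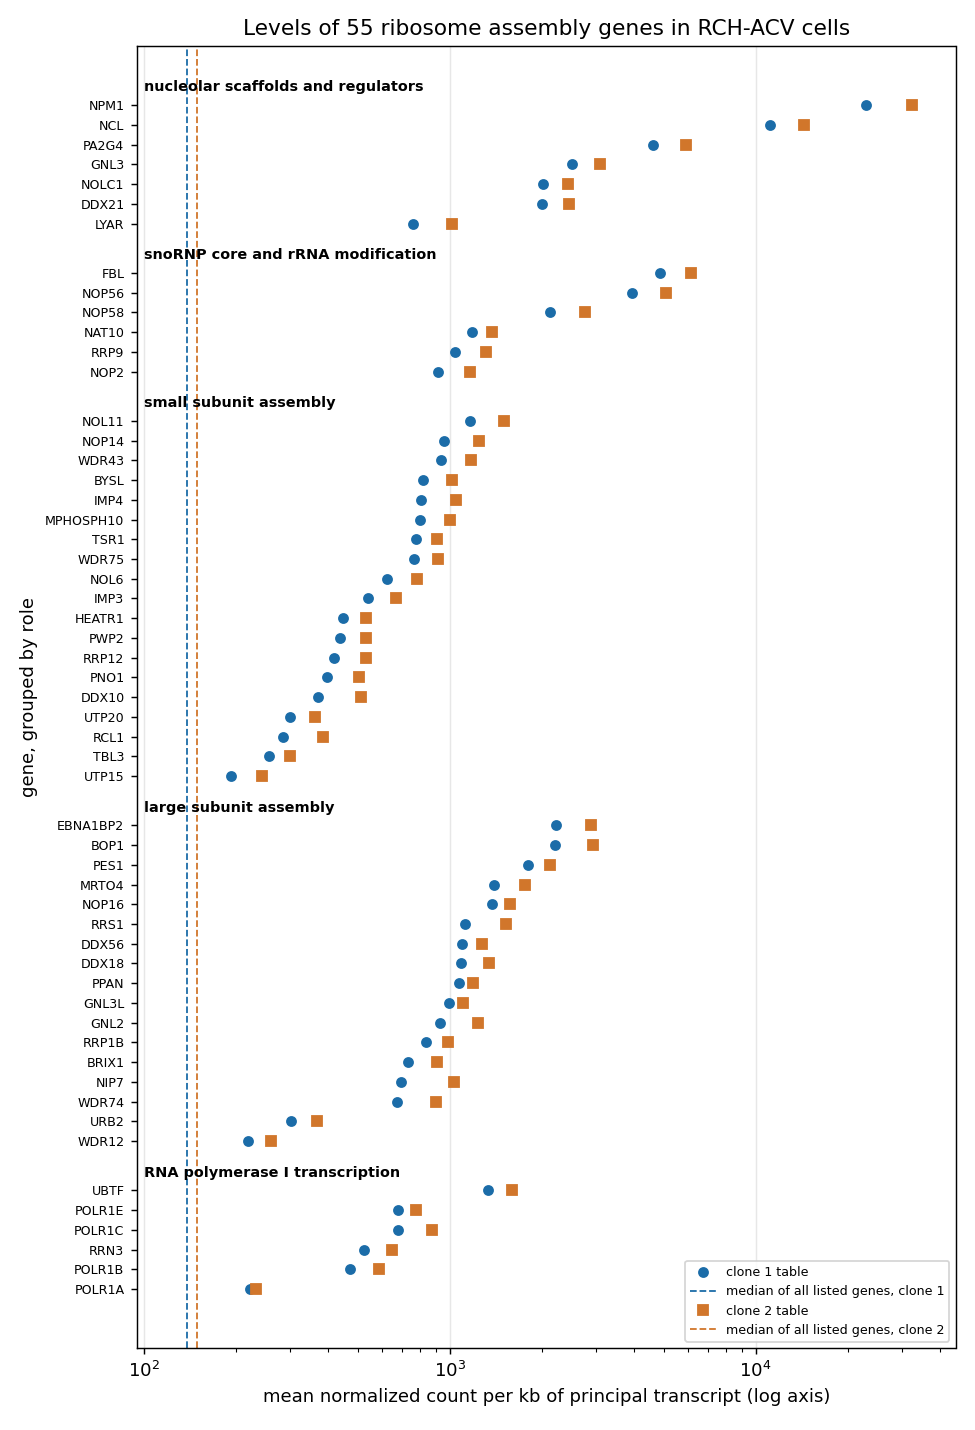
Levels of the 55 ribosome assembly genes by role. The x axis is the mean normalized count per kb of principal transcript on a log scale, circles are the clone 1 table, squares the clone 2 table, and dashed lines are the medians of all listed genes (139 and 149). Each point is a mean over 6 libraries with no error available. All points lie to the right of the dashed lines, with NPM1 and NCL farthest out.

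The nucleolar scaffolds and regulators were the most abundant role group, with medians of 2511 per kb in clone 1 and 3094 per kb in clone 2. NPM1 (nucleophosmin), a histone and ribosome chaperone of the outer nucleolus, was at 22930.1 and 32382 per kb, and NCL (nucleolin), an RNA-binding scaffold of the nucleolus, at 11131 and 14343. By mean normalized count the order was the other way round, with NCL at 44901 and 57858 and NPM1 at 40311 and 56927. NCL and NPM1 alone held 34.2% and 36.0% of the counts of all 55 genes. PA2G4, an RNA-binding growth regulator, followed at 4609 and 5911 per kb, and GNL3 at 2511 and 3094. NOLC1, a chaperone of snoRNPs, and DDX21, an RNA helicase, lay close together, with 2011 and 2001 per kb in clone 1 and 2433 and 2461 in clone 2. LYAR, a zinc finger protein of the nucleolus, was the lowest of the group at 759 and 1017. The annotation of GENCODE 29 names pseudogenes after 14 of the 55 genes. Among them were NPM1 with 45, PA2G4 and DDX18 with 5 each, NOP56 and NIP7 with 3 each, and NCL and DDX10 with 2 each. Reads of such genes may have been shared with copies, so their levels are uncertain.

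The snoRNP and modification factors had medians of 1649 and 2072 per kb. The core proteins of the box C/D snoRNP were all high, with FBL at 4863 and 6148, NOP56 at 3939 and 5094 and NOP58 at 2120 and 2766 per kb. The highest and the lowest of these 3 differed 2.29-fold in clone 1 and 2.22-fold in clone 2. NAT10 was at 1178 and 1379, RRP9 at 1041 and 1317, and NOP2, an rRNA cytosine methyltransferase, was the lowest at 913 and 1167.

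The 19 small subunit factors had lower medians of 542 and 668.5 per kb, and 2 of them in clone 1 and 3 in clone 2 were in the top decile of all genes. NOL11 was the highest (1164.5 and 1504) and UTP15 the lowest (193 and 243). With merged exons as the length NOL11 was at 728 and 940.2, below NOP14 at 959 and 1244, and UTP15 was still the lowest. NOL11 and UTP15 are both members of the UTP-A complex, which binds the precursor first. The 5 UTP-A genes in the set thus differed 6.04-fold in clone 1 and 6.20-fold in clone 2, with WDR43 at 935.5 and 1175, WDR75 at 762 and 912 and HEATR1 at 447 and 531. Their mean counts, without length, differed 5.31-fold and 5.02-fold, but in another order. HEATR1, with a principal transcript of 8447 bases, was then the highest (3774 and 4488), above NOL11 (3432 and 4431). UTP15 was again the lowest (711.5 and 895). The 3 genes of the MPP10 complex were closer together, with IMP4 at 804 and 1046, MPHOSPH10 at 802 and 999 and IMP3 at 542 and 668.5. PWP2 and TBL3 of the UTP-B complex were at 437 and 256 in clone 1 and at 531 and 299.5 in clone 2. By mean count the order was the other way round, with TBL3 at 1744 and 2038 and PWP2 at 1440 and 1751. With merged exons TBL3 was also the higher, at 244 and 285 against 208 and 253. UTP20 (299 and 363) and RCL1, an enzyme-like factor needed for 18S rRNA maturation (286 and 386), were also among the low genes per kb. By mean count UTP20, with a principal transcript of 9025 bases, was at 2702 and 3275.5, above the small subunit medians of 1879 and 2375. RCL1 was the lowest small subunit gene by mean count (610 and 823).

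The 17 large subunit factors had medians of 1075.0 and 1236.5 per kb, and 10 were in the top decile in each table. EBNA1BP2 was the highest in clone 1 (2232.5, against 2213 for BOP1) and BOP1 the highest in clone 2 (2929.7, against 2906 for EBNA1BP2). With merged exons as the length BOP1 was the highest in both (1372 and 1816), and EBNA1BP2 was at 829 and 1079. BOP1, PES1 and WDR12 form the PeBoW complex, which is needed to process the large subunit RNAs. PES1 was at 1808 and 2122 per kb, while WDR12 was the lowest large subunit gene at 218 and 260.4. The PeBoW genes differed 10.1-fold and 11.2-fold per kb but 2.88-fold and 3.20-fold in mean count. The principal transcript of WDR12 was 8100 bases long, against 2303 for BOP1 and 2295 for PES1. Of the others, MRTO4 was at 1397 and 1765, NOP16 at 1379 and 1579, DDX56 at 1095 and 1279, and URB2 at 303 and 369.

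The 6 factors of RNA polymerase I transcription had medians of 599.9 and 713 per kb. UBTF, which binds and opens the ribosomal RNA genes, was the highest at 1329 and 1602. RRN3, which recruits the polymerase to the promoter, was at 524 and 649. Among the subunits, POLR1E was at 678 and 777, POLR1C at 676 and 876, POLR1B at 473 and 586, and POLR1A, the largest subunit, was the lowest at 222.5 and 232. The principal transcript of POLR1A was 12749 bases long. By mean count the order of the subunits was reversed, with POLR1A the highest (2836.5 and 2955) and POLR1C the lowest (916 and 1187). With merged exons as the length POLR1C (165 and 214) was below POLR1A (209.8 and 219). The 4 subunits differed 3.05-fold and 3.78-fold per kb.

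All 123 genes of the second list were present in both tables, 8 of them under an older symbol, and 119 had a transcript length. Their median was 569.8 per kb in clone 1 and 739 in clone 2, with 114 (95.8%) and 116 (97.5%) above the median of all genes. NHP2 (3899 and 4928), SNU13 (2313 and 3046) and DKC1 (2249 and 2793), all proteins of snoRNPs, were the highest.

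Several of the genes also carry genes of small nucleolar RNAs (snoRNAs) within them, a known arrangement of nucleolar genes. In GENCODE 29 an annotated snoRNA lay inside 8 of the 55 genes (14.5%, interval 7.56 to 26.2%), against 1.55% of 13449 protein-coding genes in both tables, 3.13% of those with a mean of at least 1000 and 2.52% of the other assembly genes. The hosts were NCL, NOP56, NOP58, NOL11, WDR43, PPAN, GNL3 and TSR1, with 25 different snoRNA symbols in all. GNL3 held 6 annotated snoRNA genes, 2 of them under the same symbol, NOP56 held 5 and NOP58 held 4. The hosts had a median of 1642 per kb in clone 1 and 2135 in clone 2, compared with 802 and 1016.5 for the 47 genes without one, with overlapping ranges. Some of the small RNAs had rows of their own, 11 in clone 1 and 13 in clone 2. SNORD110 in NOP56 had the highest mean (135 and 185), and the medians of these rows were 24.0 and 25.6. The libraries were made from mRNA, and whether such rows came from the small RNA or from its host was not tested.

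A protein-coding neighbour with its start within 1000 bases on the opposite strand, pointing away, was found for 12 of the 55 genes (21.8%, interval 12.9 to 34.4%), compared with 9.36% of protein-coding genes in both tables and 21.8% of the other assembly genes. Some pairs were far apart in level and others were close. The ribosome assembly gene was the higher of the pair except for RRP12 and POLR1A. RRP12 stood at 420 per kb in clone 1 beside PGAM1 at 5283, whereas RRP1B stood at 838 beside HSF2BP at 5.57 and URB2 at 303 beside TAF5L at 288. Exons of 22 of the 55 genes overlapped exons of another protein-coding gene. No share over all protein-coding genes is available for comparison, so this count serves only as a caveat on their levels. PPAN shares exons with the readthrough gene PPAN-P2RY11, which was listed at 2567 and 3028 in mean count against 1781 and 1975 for PPAN itself, so the level of PPAN is uncertain. The library kit kept strand, but the strand setting of the counting is not given in the sources used here, so overlaps on opposite strands, such as POLR1C with XPO5 (mean counts of 916 and 3287 in clone 1), are uncertain as well.

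The clone tables were normalized separately, so they were set side by side as shares of the sum of each table, without a test. The order of the genes was nearly the same, with 50 of 55 at the same place in the order per kb within 3 places. The ratio of the clone 2 share to the clone 1 share had a median of 0.972 over the 55 genes and ran from 0.811 to 1.16. It was above 1 for 17 of 55 (30.9%, interval 20.3 to 44.0%), compared with 51.3% of all 15563 genes in both tables and 46.0% of the 4418 with a mean of at least 1000. The other assembly genes gave a like picture, with a median of 0.983 and 32.5% above 1. All 55 ratios lay between 0.8 and its reciprocal, as did those of 82% of all genes and 97.3% of those with a mean of at least 1000.

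**Figure D4:**
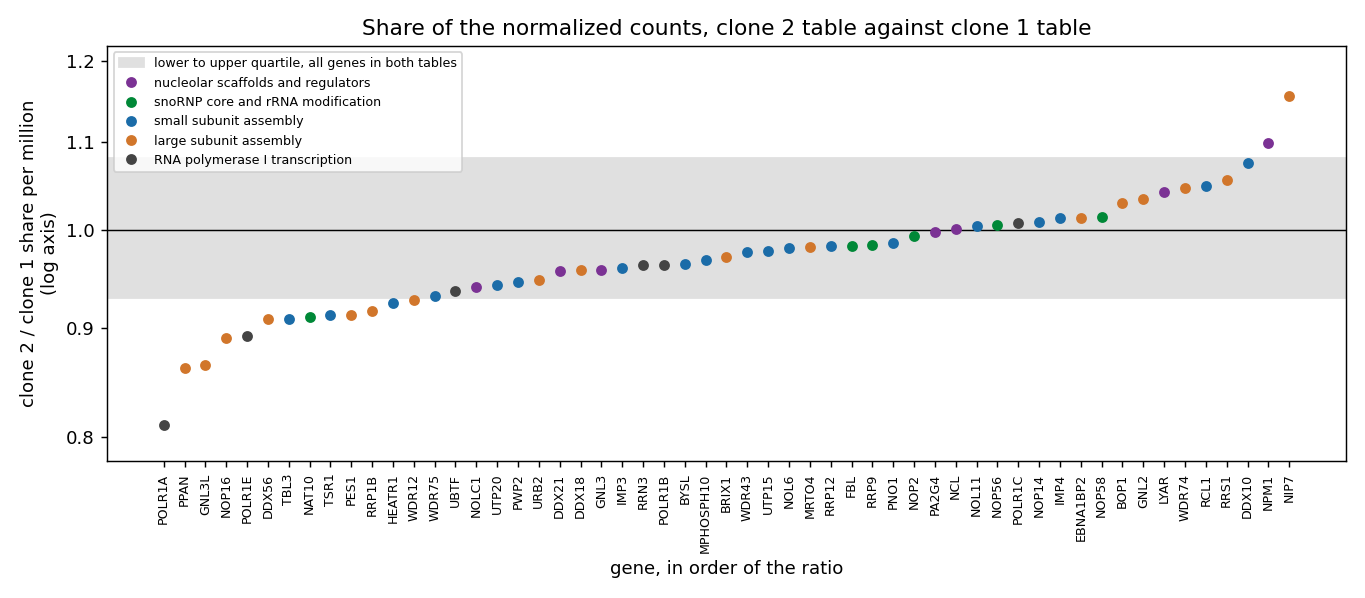
Ratio of the share of the summed normalized counts in the clone 2 table to that in the clone 1 table for each of the 55 genes, in rising order, on a log axis and coloured by role. The grey band spans the lower to upper quartile of all genes in both tables (0.930 to 1.08), and 40 of the 55 points lie inside it. POLR1A is lowest at 0.811 and NIP7 highest at 1.16.

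The lowest ratios were those of POLR1A (0.811), the large subunit factors PPAN (0.862), GNL3L (0.865) and NOP16 (0.891), and the polymerase subunit POLR1E (0.892). The highest were those of NIP7, a large subunit factor (1.16), NPM1 (1.099), the helicase DDX10 (1.075), RRS1, which brings in the 5S particle (1.06), and RCL1 (1.05). Exons of NIP7 overlap those of COG8 on the opposite strand, and the mean counts of COG8 were 870 in clone 1 and 1253 in clone 2, beside 1666 and 2477 for NIP7. The part of this overlap in the ratio was not tested. By role the median ratio was 0.998 for scaffolds and regulators, 0.989 for snoRNP and modification factors, 0.977 for small subunit, 0.958 for large subunit and 0.9503 for RNA polymerase I factors. The ranges between the quartiles overlapped for each pair of groups but one, the RNA polymerase I factors (0.903 to 0.964) and the snoRNP and modification factors (0.984 to 1.00). Without replicate values none of the differences can be set against the spread between libraries.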

How the data were processed

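Stranded mRNA libraries were made from 12 RNA samples (4 groups of 3). Per the submitters' processing notes the authors used DESeq2 and the build hg19, along with FastQC 0.10.1, bedtools 2.19.0, Picard 1.107, SAMtools and BWA, the last in versions 0.7.7-r441 and 0.6.2-r126. The annotation and the counting tool were not given in the sources used here. From each clone table deposited by the authors only the mean normalized count was used, a signal pooled over 6 libraries. The other 7 numeric or flag columns of each table hold the authors' own comparison of resistant with sensitive cells (fold change, its error, statistic, p-values and direction) and were not used, so no test and no library-level value was possible.

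Means were divided by the length of the principal transcript in GENCODE 29, matched by symbol (95.0% of clone 1 and 94.9% of clone 2 genes; 21 and 22 symbols turned into dates were left out). Since the files use hg19 and the reference GRCh38, no file coordinate was converted, and printed coordinates are those of RefSeq windows (GRCh38.p14). Of 11241 genes on the plus strand with 1 window, the base after the first 250 was the annotated gene start in 92.2%. A gene with several windows counted once if any held the motif. Shares carry 95% Wilson intervals, which treat genes as independent and cover counting error only. Python 3.11.15, pandas 2.3.3, numpy 2.4.6 and scipy 1.17.1 were used. The motif search and the percentile rank were tested on simulated data, and the other steps were not.

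Every one of the 55 genes could be named; values were given for the highest and lowest gene of each role, the 5 highest and 5 lowest clone ratios, genes with CACGTG, and the 3 highest other assembly genes. The genes and lists were chosen with earlier results of these data known. Chosen after the CACGTG matches were seen were all motif definitions other than CACGTG by itself and CACGTG or CACGCG (6 were scanned in all), the split at the start, the neighbouring bases, the complexes compared, the gene structure counts, the top decile, the range of ratios from 0.8 to its reciprocal, the count inside the quartiles and the comparison of orders.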

Additional observations from a re-analysis of the deposited data

How the results depend on the processing

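Of 18 alternatives tried, 15 gave a share inside the interval of the main value. All 55 genes stayed above the median of all genes in both tables without division by length, with merged exon length and among genes with a mean of at least 10. For the other assembly genes the share above the median went to 98.3% in clone 1 with merged exon length and to 89.9% in clone 2 among genes with a mean of at least 10. Counting CACGCG with CACGTG raised the promoter share to 66.7%, while matches within 50 bases of the start gave 42.2% and the first listed window of each gene 37.8%, against 9.88% of protein-coding genes. The share of genes with a higher clone 2 share ran from 29.1 to 30.9%. Merged exon length and the first listed window were added after seeing the data. No paired analysis was possible because the values are means over libraries and the result comes from no test. The depth of single libraries is unknown, and levels per kb depend on the transcript chosen: with merged exons the levels of NPM1 were 10531 and 14871 per kb and those of POLR1C 165 and 214, and the PeBoW genes differed 7.06-fold and 7.83-fold.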
